A study of Mus musculus with 24 samples.

Results

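CHOP, the protein encoded by Ddit3, is a bZIP transcription factor of the C/EBP family. It is induced through eIF2α phosphorylation and ATF4 when proteins misfold in the endoplasmic reticulum or amino acids run short, and it dimerizes with other C/EBP proteins. Much of the work on it concerns cell death under stress, but C/EBP factors also control metabolic genes of hepatocytes and inflammatory genes of macrophages. Kupffer cells are macrophages that reside in the sinusoids of the liver beside the endothelium. They clear particles and microbes from portal blood and make complement C1q. The comparison described here asks how livers without CHOP differ from wild-type livers when no carcinogen was given.

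It covers 6 of the 24 arrays of the series, all of whole liver from male mice at 9 months of age injected with PBS at day 15. The samples are the 3 titled wild-type PBS (strain C57BL/6J) and the 3 titled Chop-/- PBS, chosen by title. The Chop-/- mice are germline knockouts on a backcrossed C57BL/6J background that lack much of the coding sequence of Ddit3, so the loss is not limited to hepatocytes or to macrophages. For a second set of animals, livers of the same genotypes are used (6 wild-type and 7 Chop-/- livers). These mice were injected with 25 mg/kg of the liver carcinogen diethylnitrosamine (DEN) at day 15 and were also males of 9 months of age. The study states that these DEN samples held nodules as well as uninvolved tissue, so they are not the same kind of tissue as PBS livers. RNA of each liver was measured on an Illumina MouseRef-8 v2.0 array, where beads that carry the same probe are averaged. Signals are given on a log2 scale after background correction and quantile normalization, so a difference of 1 is a factor of 2, and every difference is Chop-/- minus wild type. A probe counted as detected at a detection p under 0.01.

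The arrays fall into 3 sets by the first letter of their names, and each set holds 1 wild-type and 1 Chop-/- PBS liver. Values of single arrays are given in the order of sets A, B and C. The livers of a set were not taken as pairs, so a difference within a set depends on which livers share it. Between 9186 and 10240 probes were detected per wild-type array and between 9441 and 10092 per Chop-/- array. The wild-type livers were less alike than the Chop-/- livers. Their SD had a median over genes of 0.302, against 0.178 in Chop-/- livers, and their arrays correlated with each other at 0.969 to 0.970, against 0.986 to 0.987. The hepatocyte marker list averaged 12.09 to 12.30 in wild-type livers and 12.15 to 12.30 in Chop-/- livers, over 24 genes. Alb, which encodes albumin, had signals of 10.73, 10.53 and 9.68 in wild-type livers and of 10.84, 10.83 and 10.37 in Chop-/- livers. Nothing in the labels says whether the livers of a group came from separate litters, so p-values measure the spread between samples. In the main model that spread was pooled within groups over all 24 arrays (18 residual degrees of freedom), DEN livers and tumors included. It is thus not the spread of the PBS livers alone. When the PBS groups were fitted alone, no gene passed at an adjusted p under 0.05.

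Ddit3 (chromosome 10, 127290793 to 127296291, GRCm38.p6) had signals of 6.44, 6.41 and 6.50 in wild-type livers and of 4.32, 4.74 and 4.80 in Chop-/- livers. The groups are far apart, and no Chop-/- array detected the gene. Its level fell at least 2.04-fold (limma adjusted p = 3.68e-05), where the bound is set by the dimmest detected probes of the Chop-/- arrays. A dimmer probe of Ddit3 was also undetected on all Chop-/- arrays, with a bound of 1.93-fold. The other gene that passed was Adgre1, which encodes F4/80, the classical surface marker of mouse macrophages. Its signals were 8.45, 8.10 and 8.63 in wild-type livers and 6.69, 7.11 and 6.56 in Chop-/- livers. Each Chop-/- liver was below each wild-type liver, with differences of −1.76, −0.99 and −2.08 within the sets. Adgre1 fell by 1.61 (SE 0.29, limma adjusted p = 0.0495), and its dimmer probe differed by -1.19. In whole liver, fewer cells of a type and less RNA per cell cannot be told apart. The Adgre1 call is near the threshold, and its adjusted p ran from 0.0373 to 0.617 over the alternatives run. With arrays left out one at a time, it passed without the wild-type array of set B (limma adjusted p = 0.0395) and missed without any other, with the highest value, 0.385, without the wild-type array of set C.

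These 2 genes are 0.0223% of the 8969 genes tested, and both were lower. No gene passed among those with higher values, where 507 (5.65%) had an unadjusted p under 0.05, while 434 genes (4.84%) with lower values did. With a difference of more than 1.5-fold as well, there were 262 higher (2.92%) and 204 lower genes (2.27%), or 5.2% of all. This total of 466 was 107 with the authors' log2 values, 194 with the equal-variance test, 248 without the wild-type array of set C and 1047 without that of set A. The authors' values hold a larger added constant, so 1.5-fold is not the same cut there. In 702 genes (7.83%) each Chop-/- array was above each wild-type array, and in 619 genes (6.9%) each was below. Of all genes, 48.5% had a difference below 0, and the median difference was 0.01. Below, genes other than Ddit3 and Adgre1 are given by their values, and a gene described as past an unadjusted p of 0.05 did not pass over all genes. Counts of list members at an unadjusted p under 0.05 in PBS livers are to be read beside the shares of all genes, 4.84% lower and 5.65% higher.

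**Figure D1:**
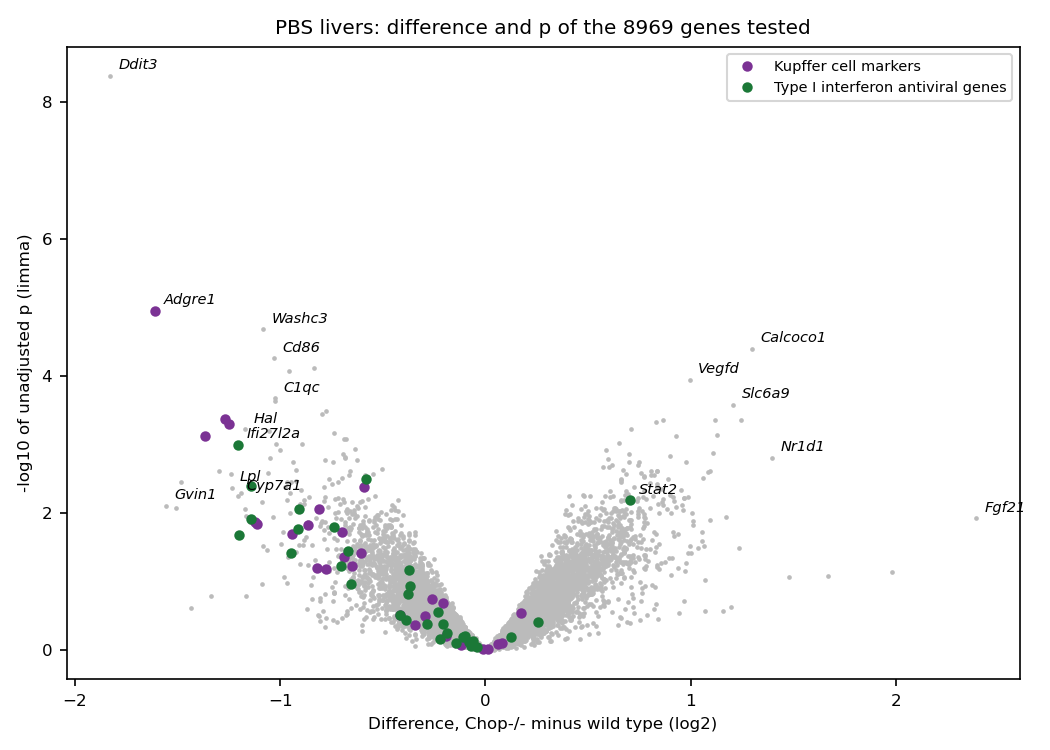
Difference between Chop-/- and wild-type PBS livers (horizontal axis, log2) against the −log10 of the unadjusted limma p (vertical axis) for the 8969 genes tested, each a point. Purple points are Kupffer cell markers and green points type I interferon genes. Ddit3 and Adgre1 stand at the upper left, and most colored points lie left of 0.

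Kupffer cell markers had the lowest median of the cell type lists. Of 36 markers, 28 were tested, 24 had a difference below 0, and 13 were lower and none higher at an unadjusted p under 0.05. The median difference was −0.63 (−0.60 with genes undetected in Chop-/- livers at their bound), against 0.01 over all genes. With the authors' log2 values it was −0.29. The average signal of the list was 7.92, 7.58 and 7.93 in wild-type livers and 7.30, 7.34 and 7.00 in Chop-/- livers, without overlap. By set the median was −0.52 (A), −0.20 (B) and −0.91 (C), so set B had the smallest shift. Cd68, Csf1r, Cd5l, Siglec1 and Msr1 were among the 8 markers not tested.

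The members with the largest differences included surface receptors that are typical of resident macrophages. Clec4f, a lectin found on Kupffer cells and hardly elsewhere, had signals of 10.13, 9.89 and 9.98 in wild-type livers and 9.26, 9.20 and 8.71 in Chop-/- livers. All 3 wild-type livers lay above all Chop-/- livers (difference −0.94, SE 0.38, unadjusted p = 0.02, adjusted p = 0.439). Vsig4, a receptor for complement C3 fragments, read 9.37, 9.61 and 10.15 in wild-type livers and 8.89, 8.47 and 7.95 in Chop-/- livers. This gap was widest in set C, where the wild-type liver was highest and the Chop-/- liver lowest (difference −1.27, SE 0.31, adjusted p = 0.231). Cd163, the scavenger receptor for haptoglobin-bound hemoglobin, gave 8.72, 8.05 and 8.13 against 7.69, 6.83 and 7.03. Its differences within the sets, which are not pairs, were −1.03, −1.22 and −1.10. Folr2, a folate receptor of resident macrophages, had a difference of −1.25, Timd4, a receptor for phosphatidylserine on dying cells, one of −0.81, and Marco, a scavenger receptor, one of −0.78 (limma adjusted p = 0.493), the last of these short of the unadjusted threshold.

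Intracellular and signaling proteins of macrophages were also among the members with lower values. Lyz2, which encodes lysozyme, had signals of 9.44, 9.49 and 9.97 in wild-type livers and 8.49, 8.57 and 7.73 in Chop-/- livers (difference −1.37, SE 0.35). Lyz1, its close paralog, differed by −1.06, and their probes may share transcripts. Lyz2 and Lyz1 lie on chromosome 10, as does Ddit3. So does Spic, another of the markers lower at an unadjusted p under 0.05 (difference −0.69). A dim probe of Lyz2 was not detected in either group. Ctss, the lysosomal protease cathepsin S, differed by −1.12, and Tyrobp and Fcer1g, the signaling adaptors of many activating receptors, by −0.87 and −0.70. Not all markers had such values. Cd14, the coreceptor for lipopolysaccharide, differed by −0.12, Mertk, a receptor for apoptotic cells, by −0.01, Slc40a1, the iron exporter ferroportin, by 0.08 and Nr1h3, the oxysterol receptor LXRα, by 0.17. None of these 4 had an unadjusted p under 0.05.

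The 3 chains of complement C1q are each encoded by their own gene in a cluster on chromosome 4, and tissue macrophages make most of the protein. C1qa had signals of 7.22, 6.94 and 7.12 in wild-type livers and 6.37, 6.28 and 6.26 in Chop-/- livers. C1qb read 8.26, 8.52 and 8.73 against 7.67, 7.77 and 6.90, and C1qc 7.48, 7.90 and 7.79 against 6.96, 6.60 and 6.54. No wild-type liver overlapped a Chop-/- liver for any chain. The differences were −0.79, −1.06 and −1.03, with unadjusted p-values of 0.000351, 0.000622 and 0.000209. Complement and coagulation factors that hepatocytes make had a median difference of −0.04 over 32 genes, 3 of which were lower and none higher at an unadjusted p under 0.05.

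**Figure D2:**
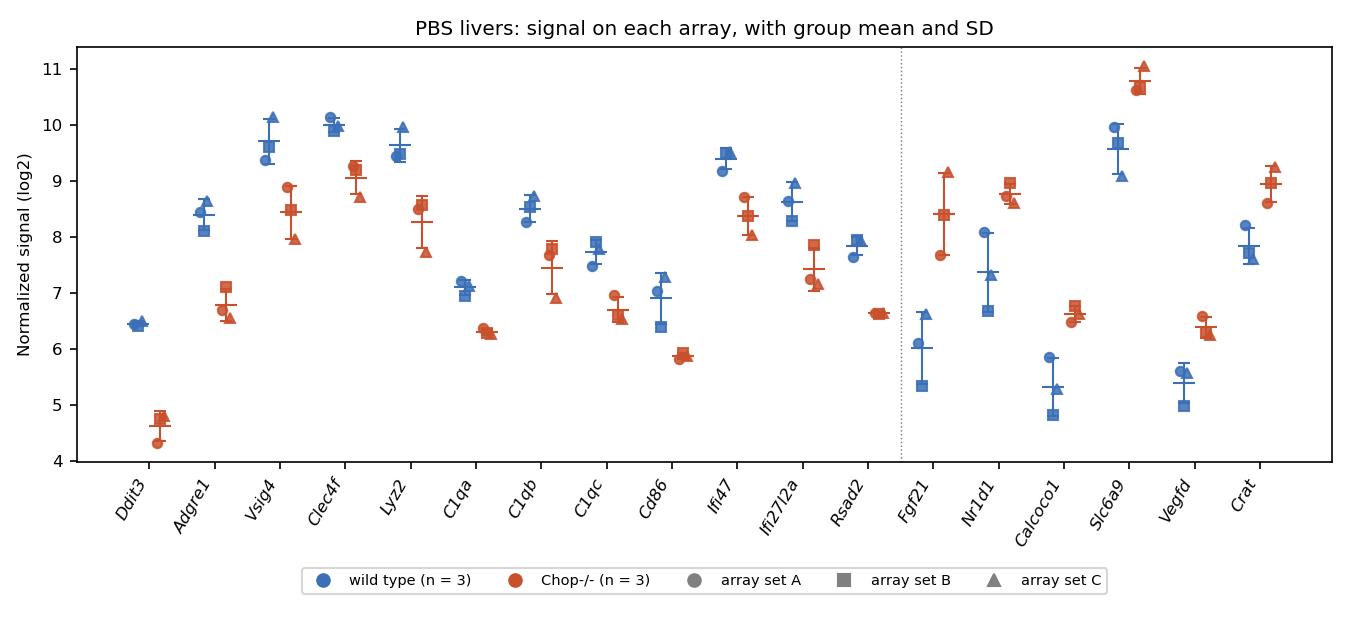
Signal (log2, vertical axis) of 18 genes on each of the 6 PBS arrays. Blue points are wild-type and red points Chop-/- livers, symbols give the array set, and bars give the mean and SD of 3 arrays. Genes left of the dotted line had lower and genes right of it higher values in Chop-/- livers, and the groups do not overlap in any of them.

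A few genes outside the Kupffer cell list are described next. Cd86, the costimulatory ligand of CD28 on antigen-presenting cells, had signals of 7.03, 6.40 and 7.28 in wild-type livers and 5.82, 5.92 and 5.87 in Chop-/- livers. The Chop-/- livers were tightly grouped and below all wild-type livers (difference −1.03, SE 0.21, adjusted p = 0.0966). P2ry13, an ADP receptor, differed by −0.78, Tbxas1, thromboxane synthase, by −1.02, Cd53, a leukocyte tetraspanin, by −1.09 and Wfdc17, a small secreted protein of activated macrophages, by −1.30. Cd300ld, an immunoglobulin-like receptor of myeloid cells, was not detected on the Chop-/- arrays and at least 1.76-fold lower there. Apart from Cd86, these genes were in none of the gene lists. They were picked by their values, so their common direction is no result.

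Markers of other blood cells gave smaller differences. Monocyte and neutrophil markers had a median of −0.24 over 7 genes, and Plac8 was the only one at an unadjusted p under 0.05. The median was −0.21 over 5 dendritic cell markers, of which Siglech was higher (0.62) and Batf3, detected on 1 wild-type array and no Chop-/- array, lower at that level. It was −0.09 over 8 T and NK cell markers, none of which had an unadjusted p under 0.05. B and plasma cell markers had a median of 0.22 over 4 genes. With genes undetected in 1 group at their bound and those undetected in both left out, 3 of these medians were nearer 0. They were −0.03 for dendritic, 0 for T and NK and 0.09 for B and plasma cell markers. Most members of these lists were not detected, 12 of the 20 T and NK cell markers among them. The average signal of the T and NK list was 5.21 to 5.86 in wild-type and 5.37 to 5.67 in Chop-/- livers, and its median within sets ran from −0.39 to 0.57. Lipid-associated macrophage genes, a program of recruited macrophages in fatty liver, had a median of −0.01 over 13 genes. At an unadjusted p under 0.05, 1 of them was higher and 1 lower, Lpl (−1.24), which is also in the lipid uptake list below.

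Markers of the sinusoidal wall, where Kupffer cells sit, were mixed. Of 25 endothelial markers, 15 had a difference below 0, and 4 were lower and none higher at an unadjusted p under 0.05, with a median of −0.08. Lyve1, a hyaluronan receptor of sinusoidal endothelium, had signals of 8.08, 6.36 and 6.34 in wild-type livers and 5.25, 5.62 and 5.47 in Chop-/- livers. The wild-type liver of set A stood apart from the other 2, and the differences within sets were −2.83, −0.75 and −0.87. Stab2, a scavenger receptor of the same cells, read 8.94, 8.59 and 8.93 against 8.33, 8.25 and 8.17, and it lies on chromosome 10. Mrc1, the mannose receptor of sinusoidal endothelium and macrophages, differed by −0.59 and Tek, the angiopoietin receptor, by −0.52. Pecam1, a general endothelial marker, did not overlap between groups but missed the unadjusted threshold (difference −0.33, limma adjusted p = 0.596). Stellate cell and fibroblast markers had a median of 0.08 over 15 genes and collagens and other matrix genes one of −0.08 over 29, with none of the latter past an unadjusted p of 0.05. Col1a1 was not detected on any of the 6 arrays.

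Antigen presentation genes were less clear. MHC class II molecules show peptides to helper T cells, and 8 of the 9 class II and costimulation genes tested had a difference below 0 (median −0.40), but Cd86 alone had an unadjusted p under 0.05. The median was −0.63 without the wild-type array of set B and −0.16 without that of set C. H2-Aa, a class II chain, had signals of 9.54, 8.83 and 9.79 in wild-type livers and 8.75, 9.22 and 8.76 in Chop-/- livers. The groups overlapped because the wild-type liver of set B was low and the Chop-/- liver of set B high, and the median of the list was −0.75, 0.19 and −0.70 within the sets. Of 21 class I and antigen processing genes, 18 were below 0 with a median of −0.14, and 2 were lower at an unadjusted p under 0.05. These were H2-M3, a nonclassical class I molecule that binds formylated peptides (difference −0.70), and Psmb9, a subunit of the immunoproteasome (−0.65). Psme2, a proteasome activator subunit, was not detected in Chop-/- livers and at least 1.42-fold lower (adjusted p = 0.107).

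Interferon-stimulated genes also had lower values. Type I interferons act through transcription factors that include STAT2 and IRF9 on the interferon-stimulated response element (ISRE) in the promoters of antiviral genes. Of 32 such genes tested, 29 had a difference below 0, and 10 were lower and 1 was higher at an unadjusted p under 0.05, with a median of −0.37. By set the median was −0.33 (A), −0.16 (B) and −0.77 (C), and it was −0.24 without the Chop-/- array of set C and −0.23 with the authors' log2 values. Ifi27l2a, a small mitochondrial protein gene, had signals of 8.64, 8.28 and 8.97 in wild-type livers and 7.25, 7.86 and 7.16 in Chop-/- livers (difference −1.20, SE 0.32, adjusted p = 0.279). Set B again had the nearest values. Rsad2, which encodes the antiviral enzyme viperin, had signals of 7.65, 7.95 and 7.92 in wild-type livers and of 6.63, 6.63 and 6.65 in Chop-/- livers. The Chop-/- livers were nearly identical here (difference −1.20, SE 0.48, adjusted p = 0.439).

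Other members by role gave the following values. Among RNA sensors, Ifih1, which encodes MDA5, was undetected in Chop-/- livers and lower by at least 1.51-fold, and Ddx58, which encodes RIG-I, differed by −0.38 with overlap. Among effectors, Ifit3 differed by −0.95, Oasl2 by −0.91, Trim30a by −0.74, Cmpk2 by −0.67 and Parp14 by −0.58. Isg15, the ubiquitin-like modifier, differed by −0.65 with overlapping groups, and Usp18, the protease that removes it, by −1.14. Of the signaling proteins, Irf9 differed by −0.37 with overlapping groups. Stat2 went the other way, with signals of 7.69, 7.10 and 7.26 in wild-type livers and 8.09, 8.11 and 7.96 in Chop-/- livers. Its values were higher in each Chop-/- liver (difference 0.70, SE 0.24), and the gene lies within 1 Mb of Ddit3.

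Interferon-induced GTPases attack the membranes around intracellular microbes. Of 10 tested, 8 were below 0 and 3 were lower at an unadjusted p under 0.05 (median −0.28, and −0.45, 0.25 and −0.75 within sets). Without the wild-type or the Chop-/- array of set B the median was −0.51 or −0.49, and with the authors' log2 values −0.15. Ifi47 had signals of 9.18, 9.49 and 9.51 in wild-type livers and 8.71, 8.37 and 8.04 in Chop-/- livers. It did not overlap (difference −1.02, SE 0.23, adjusted p = 0.208). Gbp2 differed by −0.88 and Irgm2 by −0.58. Gvin1, a giant GTPase of the same response outside the list, read 8.82, 8.27 and 9.22 in wild-type livers against 7.38, 7.96 and 6.32. Its differences within sets ran from −2.91 to −0.32, and the mean was −1.55 (SE 0.53, adjusted p = 0.414).

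Promoters of RefSeq (GRCm38.p6, 250 bases before to 50 bases after the gene start) were searched on both strands for the ISRE core. This core is GAAA, any 2 bases and GAAA again. It was present in 11 of the 22 type I interferon genes with a promoter in the table, in 7 of the 8 GTPases and in 3 of the 22 Kupffer cell markers, while 3.99% of all 27025 genes held it. Stat2 was among the 11. The interferon and GTPase lists were made of genes known to be induced by interferon, so these shares say nothing about the genotype difference. The promoters of Rsad2 and Gbp2 follow, 1 of an antiviral enzyme and 1 of a GTPase, with the match in capitals. Both matches lie on the reverse strand, with their first printed base at offsets −120 and −59 from the gene start.
Rsad2 (chr12:26456403-26456702, minus strand): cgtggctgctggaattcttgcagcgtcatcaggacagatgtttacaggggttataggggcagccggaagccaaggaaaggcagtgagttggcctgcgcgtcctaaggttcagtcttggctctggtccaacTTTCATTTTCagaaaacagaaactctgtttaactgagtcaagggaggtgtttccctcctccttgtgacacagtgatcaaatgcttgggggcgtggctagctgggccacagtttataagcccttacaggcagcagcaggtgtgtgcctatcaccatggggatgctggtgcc
Gbp2 (chr3:142620413-142620712, plus strand): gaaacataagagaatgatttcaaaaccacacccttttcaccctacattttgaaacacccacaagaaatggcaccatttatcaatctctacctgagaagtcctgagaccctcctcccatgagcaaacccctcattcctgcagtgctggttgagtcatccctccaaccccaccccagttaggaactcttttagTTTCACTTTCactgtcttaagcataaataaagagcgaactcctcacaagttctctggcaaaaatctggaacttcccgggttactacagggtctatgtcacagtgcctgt

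Sensors of microbes and the cytokines they induce were measured next. Of 22 pattern recognition receptors and adaptors, 4 were lower and 1 was higher at an unadjusted p under 0.05 (median −0.20, and 0 with undetected genes at their bound), where 4.84% of all genes were lower and 5.65% higher. The median was −0.09 without the wild-type array of set A and −0.11 without that of set C. Ly86, a secreted protein that pairs with CD180, a homolog of the Toll-like receptors, had signals of 6.59, 6.19 and 7.03 in wild-type livers and 5.68, 5.78 and 5.54 in Chop-/- livers. Tlr2, the receptor for bacterial lipoproteins, read 6.04, 6.13 and 6.01 against 5.06, 5.43 and 5.33 and was detected on 1 of the 3 Chop-/- arrays. Both genes were without overlap, with differences of −0.94 and −0.79. Nlrx1, a mitochondrial regulator of innate signaling, had a higher value (0.73) with overlapping groups. A dimmer Nlrx1 probe, detected on all arrays of both groups, differed by −0.04, and the dimmest by 0.23. Of 31 cytokines, chemokines and adhesion molecules, 4 were lower and none higher at an unadjusted p under 0.05, with a median of −0.18. That median was 0 with 9 genes at their bound and the 6 genes undetected in both groups left out. Vcam1, which binds leukocyte integrins, had signals of 7.75, 6.97 and 8.25 in wild-type livers and 6.79, 6.91 and 6.42 in Chop-/- livers, a difference of −0.95. Il1b, the gene of interleukin-1β, stayed undetected on the Chop-/- arrays and was at least 1.74-fold lower there. Il6 and Tnf were not tested. Acute-phase proteins, which hepatocytes release under interleukin-6, had a median of −0.08 over 27 genes and none at an unadjusted p under 0.05.

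The study chose a list of immune genes on these same samples. Of its 26 genes, 20 were tested, 16 were lower and 1, Ptms, was higher at an unadjusted p under 0.05, and the median was −0.85. Because of how it was chosen, the list is not independent evidence of its direction. In DEN livers, which are other animals, its median was −0.28, and 6 of the 20 were lower at an unadjusted p under 0.05, against 0.658% of all genes there.

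**Figure D3:**
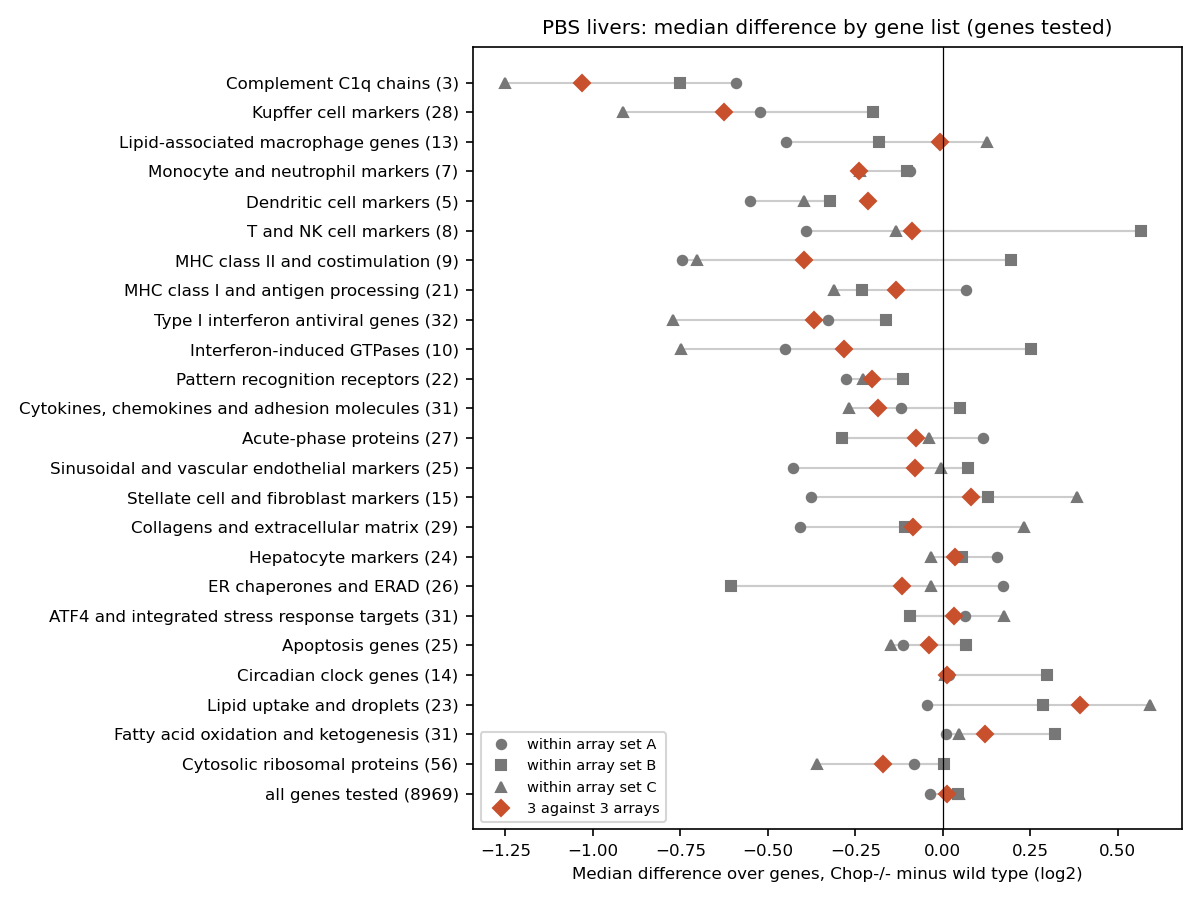
Median difference (log2, horizontal axis) between Chop-/- and wild-type PBS livers for gene lists, with the number of genes tested in parentheses. Red diamonds are medians of the 3 against 3 comparison and grey symbols the medians of each array set (A, B or C). The Kupffer cell, C1q and type I interferon medians lie below 0 in every set. So do those of dendritic cell markers, monocyte and neutrophil markers and pattern recognition receptors. The medians of MHC class II and the GTPases lie above 0 in set B.

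Among genes with higher values, the largest difference was that of Fgf21, a fasting- and stress-induced hormone of the liver that ATF4 and PPARα control. Its signals were 6.10, 5.33 and 6.61 in wild-type livers and 7.67, 8.39 and 9.15 in Chop-/- livers. All Chop-/- livers were above all wild-type livers, yet the spread was wide (difference 2.39, SE 0.87, unadjusted p = 0.0118, adjusted p = 0.414). Calcoco1, a coactivator and autophagy receptor, had the smallest p of the higher genes, with signals of 5.86, 4.82 and 5.29 against 6.47, 6.77 and 6.63 (difference 1.30, SE 0.26, adjusted p = 0.0883). It was detected on 2 of the 3 wild-type arrays. Vegfd, a growth factor of lymphatic vessels, read 5.61, 4.98 and 5.57 against 6.59, 6.31 and 6.25, and Slc6a9, a glycine transporter, 9.96, 9.68 and 9.08 against 10.62, 10.67 and 11.05. Neither overlapped, and their differences were 1.00 and 1.21. Gtf2ird1, a transcription factor of the TFII-I family, differed by 1.12. Its dimmer probes, detected on only some arrays, differed by 0.01 and 0.03. Pde4c, a phosphodiesterase of cAMP, was undetected in wild-type livers and at least 1.35-fold higher in Chop-/- livers.

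In many of the higher genes the same wild-type array was the lowest. Of the 262 genes more than 1.5-fold higher at an unadjusted p under 0.05, the wild-type array of set C had the lowest wild-type signal in 199 (76%), that of set B in 51 and that of set A in 12. The shares over all genes were not computed, so these counts have no background to be read against. Without the wild-type array of set C, 109 higher and 139 lower genes passed the same thresholds. Scaf1, a splicing-associated factor, read 5.93, 5.94 and 4.55 in wild-type livers and 6.39, 6.58 and 6.83 in Chop-/- livers, with differences of 0.47, 0.64 and 2.28 within sets. Bahcc1, a chromatin reader, had differences of 0.66, 0.41 and 2.22. Lor, which encodes loricrin, did not depend on that array, with differences of 0.91, 1.30 and 1.11. For the 204 lower genes the wild-type array of set C was the highest in 122 (59.8%), again without the share over all genes.

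Another wild-type liver, that of set B, stood apart in genes that vary over the day. Dbp, a clock-controlled bZIP factor, had signals of 11.46, 5.41 and 11.42 in wild-type livers and 11.79, 10.80 and 11.64 in Chop-/- livers. Arntl, which encodes the clock activator BMAL1, read 6.64, 9.07 and 5.68 against 6.73, 7.05 and 6.49. In that liver Dbp was thus lowest and Arntl highest of all 6. Nr1d1, which encodes the clock repressor REV-ERBα, had signals of 8.09, 6.68 and 7.32 in wild-type livers and 8.72, 8.96 and 8.60 in Chop-/- livers. It was without overlap and differed by 1.40 (SE 0.39, adjusted p = 0.318), with 0.64, 2.28 and 1.28 within sets. Fos and Igfbp1, genes induced by acute stimuli and by fasting, were also highest there, at 8.55 and 9.21. The ER chaperone Hspa5 read 7.54, 9.26 and 7.69 in wild-type livers and 7.71, 7.30 and 7.49 in Chop-/- livers. The clock list as a whole had a median of 0.01 over 14 genes, and the part of this liver in the results above was not tested beyond leaving it out.

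Genes of the unfolded protein and integrated stress responses are the setting in which CHOP is best known. Of 26 ER chaperones and degradation factors, none had an unadjusted p under 0.05, and the median was −0.12, with −0.61 in set B. Of 31 ATF4 and integrated stress response targets, 5 were higher and 2 lower at that level, with a median of 0.03. The higher ones were Fgf21, the secreted Stc2 (detected on 1 Chop-/- array and no wild-type array), the serine metabolism enzyme Shmt2 and the aminoacyl-tRNA synthetases Sars (difference 0.50) and Aars (0.51), and the lower ones were the synthetase Mars1 (−0.74) and the cystathionine lyase Cth (−1.07). Ppp1r15a, which encodes GADD34, a known CHOP target, had signals of 7.50, 7.23 and 6.92 in wild-type livers and 7.62, 7.89 and 7.57 in Chop-/- livers (difference 0.48, limma adjusted p = 0.551). Chac1, a glutathione-degrading enzyme, differed by 0.41 (limma adjusted p = 0.741), Tnfrsf10b, which encodes the death receptor DR5, by −0.36 (limma adjusted p = 0.79), and Trib3 was not detected on any array. Of 25 apoptosis genes 1 was lower at an unadjusted p under 0.05, Birc3, which no array detected, and the median was −0.04. Bbc3 and Bcl2l11, BH3-only genes linked to CHOP, differed by 0.10 and −0.09.

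The C/EBP element that binds ATF4 dimers, TTGCATCA, was searched in the same way. It was present in 9 of the 25 ATF4 and stress response genes with a promoter, in none of the 22 type I interferon genes and in 1.03% of all genes. The promoter of Fgf21, the gene with the largest difference, held it with its first base at offset −139 from the gene start.
Fgf21 (chr7:45615441-45615740, minus strand): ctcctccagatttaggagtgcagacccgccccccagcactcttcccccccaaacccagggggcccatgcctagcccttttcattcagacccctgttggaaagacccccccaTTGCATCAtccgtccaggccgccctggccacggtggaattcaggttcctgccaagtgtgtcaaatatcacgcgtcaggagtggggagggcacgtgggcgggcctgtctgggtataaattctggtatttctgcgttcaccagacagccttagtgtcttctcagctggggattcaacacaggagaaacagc

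Among the dimerization partners of CHOP, Cebpb had signals of 11.42, 11.34 and 11.08 in wild-type livers and 11.82, 11.81 and 11.82 in Chop-/- livers. These groups did not overlap, but the difference of 0.54 (SE 0.29) had an unadjusted p of 0.0734. Cebpe differed by 0.48 (limma adjusted p = 0.414), was past the unadjusted threshold and did not overlap, and Cebpa differed by 0.37 with overlap. Cebpg was not detected on the wild-type arrays and was detected on 1 Chop-/- array. Over 13 genes of this list the median was 0.03.

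Metabolic lists were measured in the same way. Lipid uptake and droplet genes had the highest median of the metabolic lists, 0.39 over 23 genes, 3 of which were higher and 1 lower at an unadjusted p under 0.05. It was −0.05, 0.29 and 0.59 within sets, and it ran from 0.131 to 0.445 over the alternatives, lowest without the Chop-/- array of set C. Pnpla2, the triglyceride lipase ATGL, differed by 0.48, Lipa, the lysosomal acid lipase, by 0.65, and Cidec, a droplet fusion protein, by 1.67 with overlap (SE 0.92). Lpl, the lipase that takes up circulating triglyceride, went the other way, with signals of 9.31, 9.33 and 9.00 in wild-type livers and 7.87, 8.26 and 7.80 in Chop-/- livers (difference −1.24, SE 0.39, adjusted p = 0.386). Crat, carnitine acetyltransferase, read 8.21, 7.71 and 7.60 against 8.60, 8.96 and 9.24, a difference of 1.10. Fatty acid oxidation had a median of 0.12 over 31 genes and de novo lipogenesis one of 0.06 over 26.

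In bile acid metabolism, Cyp7a1, the rate-limiting enzyme of synthesis, had signals of 11.02, 10.64 and 11.31 in wild-type livers and 9.87, 9.41 and 10.08 in Chop-/- livers. The differences within sets, which are not pairs, were −1.15, −1.23 and −1.23 (mean −1.20, SE 0.39, adjusted p = 0.406). Abcg8, a subunit of the sterol transporter, read 10.66, 10.55 and 10.88 against 11.42, 11.46 and 11.18, a difference of 0.66. The other 21 genes of the list had an unadjusted p of 0.05 or more. Of 33 cytochrome P450 genes of drug metabolism none had an unadjusted p under 0.05 (median 0.09). Of 35 conjugation enzymes 2 were higher at that level, Gstm1 (0.91) and Mgst3 (0.77), with a list median of 0.03. This count is near the share of all genes that were higher, 5.65%. Gluconeogenesis had a median of −0.22 over 16 genes with only Mdh1 lower at that level (−0.73). Cytosolic ribosomal protein genes had a median of −0.17 over 56 genes, of which 41 were below 0 and 5 were lower and none higher at an unadjusted p under 0.05. Their median was −0.05 without the wild-type array of set C. Within sets it was −0.08, 0.00 and −0.36, and Rps6 shows the pattern, with 10.98, 11.59 and 12.14 in wild-type livers and 11.13, 10.92 and 10.83 in Chop-/- livers.

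DEN livers share no sample with PBS livers, so the PBS values can be set beside them, though the DEN samples included nodules. The part of the nodules in the DEN values was not tested. There, 46.5% of all genes had a difference below 0. Of the genes tested, 151 genes (1.68%) had an unadjusted p under 0.05, 59 lower (0.658%) and 92 higher (1.03%), and Ddit3 and Mars1 passed over all genes (0.0223%). The difference between the 2 sets of livers passed for no gene (0%) at an adjusted p under 0.05, with 316 genes at an unadjusted p under 0.05 (3.52%). At an unadjusted p under 0.05, 40 genes were found in both sets of livers, which is 4.25% of the PBS genes and 26.5% of the DEN genes. Of these, 39 had the same direction (0.435% of all genes tested), 21 lower and 18 higher, and Wdr24 had opposite directions (0.37 in PBS and −0.25 in DEN livers). The 39 include Adgre1, all 3 C1q chains, Vsig4, P2ry13, Ly86, H2-M3, Ifi27l2a, Oasl2, Cmpk2, Stab2 and Abcg8.

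Adgre1 had a median of 8.13 (range 7.58 to 9.16) in 6 wild-type DEN livers and of 7.58 (range 7.20 to 7.75) in 7 Chop-/- DEN livers. The ranges overlapped, and the DEN difference was −0.69 (SE 0.20, unadjusted p = 0.00184) where the PBS difference was −1.61. The gap between these, 0.92, had an unadjusted p of 0.0145 and an adjusted p of 0.994. Ifi27l2a ranged from 8.48 to 9.22 in wild-type and from 7.86 to 8.37 in Chop-/- DEN livers, without overlap (difference −0.69). The median of the Kupffer cell list was −0.24 in DEN livers, with 2 of 28 genes lower at an unadjusted p under 0.05. That of the type I interferon list was −0.21 with 4 of 32, where 0.658% of all genes were lower at that level. Several PBS differences were near 0 in DEN livers, with 0.05 for Nr1d1 and for Cyp7a1, 0.01 for Mrc1, −0.05 for Vegfd and −0.05 for Il1b. For Fgf21 the DEN difference was 0.29 and for Lpl 0.19, the latter opposite to its PBS value.

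**Figure D4:**
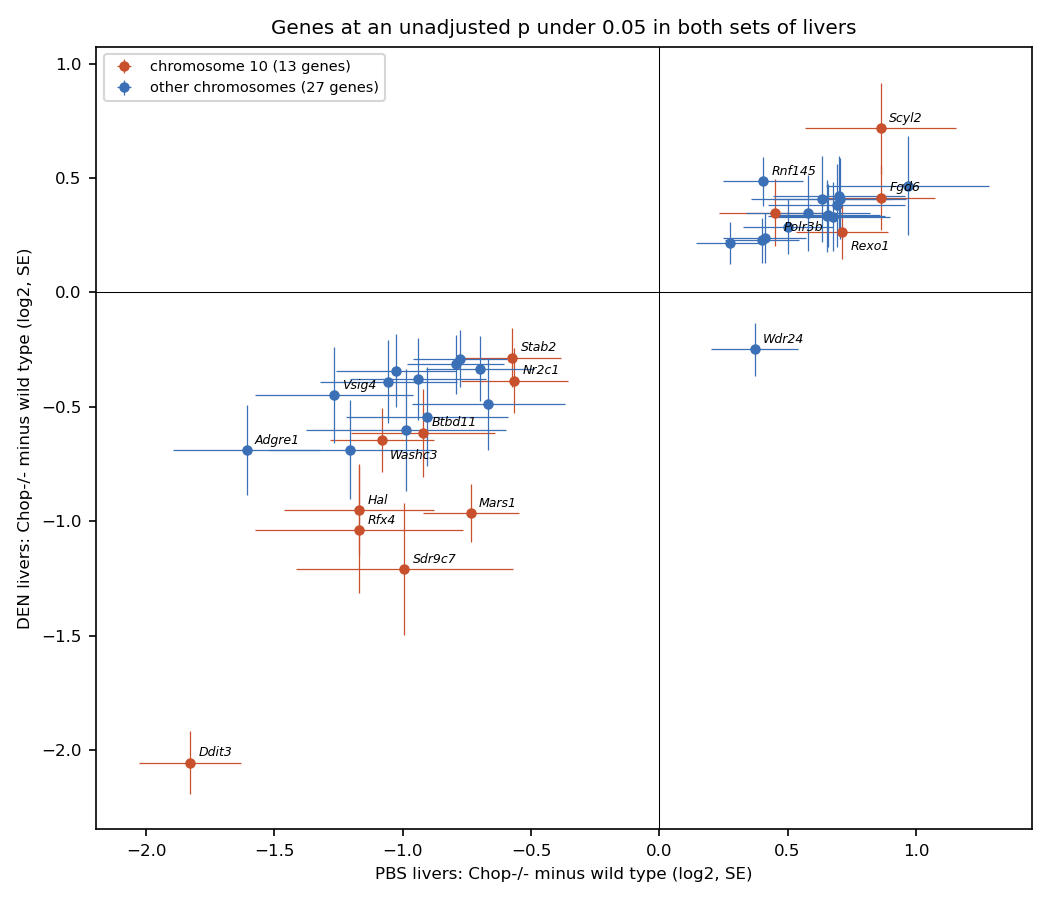
Difference in PBS livers (horizontal axis) against that in DEN livers (vertical axis), both log2 with SE bars, for the 40 genes at an unadjusted p under 0.05 in both. Red points are the 13 genes on chromosome 10 and blue points the 27 others. All but Wdr24 have the same sign on both axes. Ddit3, Btbd11, Scyl2, Rexo1 and Ccm2 were undetected in 1 PBS group, so their plotted positions depend on the background.

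Many of the shared genes lie on the chromosome of Ddit3. Chromosome 10 holds 455 of the genes tested (5.07%) and 13 of the 39 genes with the same direction (33.3%). Thus 2.86% of the genes of chromosome 10 were shared in this way, against 0.305% of the genes elsewhere. In DEN livers 4.4% of chromosome 10 genes had an unadjusted p under 0.05, against 1.54% elsewhere, while in PBS livers alone the shares were 10.8% and 10.5%. Ddit3 is 1 of the 13, 8 others were lower and 4 were higher. Of the 13, 10 start between 80 and 100 Mb, where 121 genes were tested, and the other 3 are Ddit3, Mars1 and Sdr9c7. In the rest of the chromosome no gene was shared.

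Mars1, which encodes methionyl-tRNA synthetase, is the neighbor of Ddit3, and their intervals overlap by 71 bases. It had signals of 10.19, 10.11 and 9.79 in wild-type livers and 9.23, 9.28 and 9.37 in Chop-/- PBS livers (difference −0.74, SE 0.19, adjusted p = 0.257). In DEN livers it ranged from 9.70 to 10.31 in wild-type and from 8.81 to 9.31 in Chop-/- mice, without overlap (difference −0.97, limma adjusted p = 0.000514). Its second probe gave −0.64 in PBS livers. Sdr9c7, a dehydrogenase 0.61 Mb from Ddit3, read 7.12, 8.67 and 7.94 against 6.98, 6.83 and 6.94 in PBS livers and did not overlap in DEN livers either (difference −1.21). Its probes disagree, since of 2 others with like wild-type signals 1 differed by −0.08 and 1, detected on a single Chop-/- array, by −2.83. Of the 36 other genes tested within 1 Mb of Ddit3, Mars1 and Sdr9c7 were lower and Shmt2 and Stat2 higher at an unadjusted p under 0.05. Over all genes 4.84% were lower and 5.65% higher at that level, so these counts are near the shares of all genes.

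Between 80 and 100 Mb, Washc3, a subunit of the WASH complex of endosomes, had signals of 9.08, 9.18 and 9.90 in wild-type livers and 8.46, 8.28 and 8.18 in Chop-/- livers. It had the smallest adjusted p of the genes that did not pass (difference −1.08, SE 0.20, adjusted p = 0.0619) and differed by −0.64 in DEN livers. Its other probes gave −1.47 and −0.42. Hal, histidine ammonia-lyase of histidine breakdown, read 12.24, 12.67 and 11.87 against 11.80, 10.82 and 10.66, a difference of −1.17 in PBS and −0.95 in DEN livers. Rfx4, a ciliary transcription factor, differed by −1.17 and −1.04, Nr2c1, an orphan nuclear receptor, by −0.57 and −0.39, and Stab2 by −0.57 and −0.29. Btbd11 was not detected in Chop-/- PBS livers and was at least 1.05-fold lower. The higher genes were Fgd6, an exchange factor for CDC42 (0.86 and 0.41), Polr3b, an RNA polymerase III subunit (0.45 and 0.35), Scyl2 and Rexo1. Scyl2, a clathrin-associated pseudokinase, was not detected on the wild-type PBS arrays and was at least 1.20-fold higher in Chop-/- livers. Rexo1 was detected on 1 Chop-/- array and no wild-type array, and no fold is given. Loss of CHOP and a segment of chromosome 10 inherited with the targeted allele cannot be told apart in this design, since all Chop-/- mice carry that allele.

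**Figure D5:**
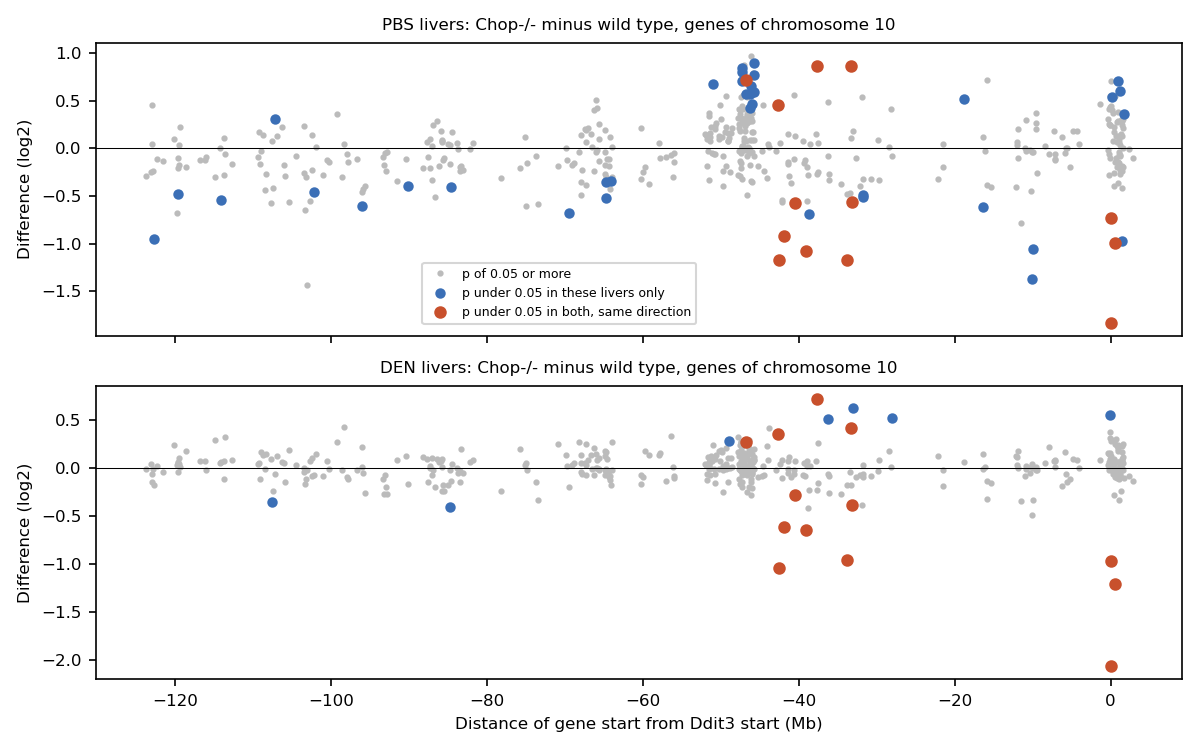
Difference (log2, vertical axis) of the 455 genes of chromosome 10 against the distance of their start from that of Ddit3 (horizontal axis, Mb), in PBS livers (top) and DEN livers (bottom). Red points are the 13 genes at an unadjusted p under 0.05 in both sets of livers with the same direction. They lie at Ddit3 itself, within 1 Mb of it, and in the 80 to 100 Mb stretch.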

How the data were processed

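Total liver RNA was profiled on 1 Illumina MouseRef-8 v2.0 array per sample. The authors exported bead intensities with GenomeStudio 2011.1, and the deposited intensities are already background subtracted (26.9% are negative, down to −23.07) and share 1 distribution across the 24 arrays. Detection p-values, also deposited, compare a probe with negative controls. Log2 values that the authors made from these signals served as an alternative. On the linear scale they exceeded the deposited signals by a median of 104.1, where 16 was added here. Log2 differences on the 2 scales are thus not alike in size. The group of each array was taken from the headings under which the study lists their names, and all 24 then matched a deposited sample of the same group in value. Another 48 columns of values per sample (bead counts and bead errors) were not used.

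Background correction by detection p-values, quantile normalization and a log2 transform after adding 16 were run with neqc (limma 3.58.1, R 4.3.3). This repeats steps already in the deposited values. Genes with a probe detected (p under 0.01) on at least 2 arrays were kept (8969), each by its brightest probe. One model held 6 group means over 24 arrays (18 residual degrees of freedom), with Benjamini-Hochberg adjustment over all genes. The exact permutation test of 3 against 3 arrays cannot go below p = 0.1 (2-sided), which Ddit3, Adgre1 and each C1q chain reached. The number of arrays limits the precision.

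A gene undetected on all arrays of 1 group is given as a bound. For each array of the dim group, the higher of its lowest detected value and the gene's own value was taken, and their mean was set against the mean of the other group. Genes were named by a rule: those that passed, the largest and most significant differences in each direction, and up to 6 genes per list by p. Genes named outside the rule, such as Tbxas1, Cd53, Mertk, Slc40a1, Nr1h3, Pecam1 and Arntl, were chosen after their values were seen. The comparison, gene lists and members were chosen with earlier results of these data known. Alternatives covered background, normalization, filter, probes, arrays fitted, weights, array set or replicate block, the variance model and leaving out each array.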

Additional observations from a re-analysis of the deposited data

Results flagged for a closer look

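In the 40 genes of both sets of livers, each DEN group was examined for a sample far from the others. Of 80 groups, 4 had one (5%), and chance gives about 1 in 20. The lowest Chop-/- DEN liver had an H2-M3 signal of 5.77 (next 5.94, n = 7) and another a Cav1 signal of 7.64 (next 8.18, n = 7). The highest Chop-/- DEN liver for Ehmt1 was at 8.53 (next 8.12, n = 7), and the highest wild-type DEN liver for Polr3b was at 8.01 (next 7.55, n = 6). PBS groups of 3 were not examined in this way.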

How the results depend on the processing

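For all 85 genes recomputed, each of 1611 values under 19 alternatives kept its direction. These genes were named largely by their differences on the same arrays, so a kept direction is no independent support. The number of genes that passed at an adjusted p under 0.05, 2 as reported, was 1 (Ddit3) with no further background correction, the authors' log2 values, no filter on detection, the mean of a gene's probes, the 19 whole-liver arrays, array weights or the array set as a block. There were 0 in the fits of the 2 PBS groups alone, with either kind of values, and with the equal-variance test without moderation. Leaving out 1 array gave 1 to 6. Ddit3 passed in each of these, and alone without any 1 Chop-/- array or the wild-type array of set C. Without the wild-type array of set A, Calcoco1 and Washc3 passed beside it and Adgre1 did not (adjusted p = 0.0795). The count was 6 without the wild-type array of set B, where Cd86 and Epb41l3 also passed (adjusted p = 0.0114 and 0.0395).

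The 466 genes that differed beyond 1.5-fold at an unadjusted p under 0.05 became 107 with the authors' log2 values and 194 with the equal-variance test. They were 248 to 1047 when 1 array was left out, lowest without the wild-type array of set C and highest without that of set A. Samples of the same number did not deviate together in every pair (r = −0.0737, 0.243 and 0.0592), so the numbers were not taken as pairs. With the replicate block in the authors' values of the 2 PBS groups the count was 127, against 115 without the block, and 0 genes passed in both. The interaction count stayed at 0 wherever it was run. The 39 genes shared with DEN livers became 67 with the 19 whole-liver arrays and 78 with array weights, and numbered 30 to 78 over all alternatives, 10 to 15 of them on chromosome 10. The Kupffer cell median ran from −0.773 to −0.288 and the interferon median from −0.42 to −0.227. The causes of these moves were not tested.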
